A study of Arabidopsis thaliana with 18 samples.

Results

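Rosettes of the Arabidopsis thaliana line 35S::amiRAP2.2-12 (amiRAP2.2-12 below) kept under hypoxia were compared with rosettes of the same line kept in air. Samples were chosen by their titles: 3 hypoxia arrays and 3 air arrays, 6 of the 18 arrays of the study, with all 22746 probe sets that are not controls. The line is in ecotype Columbia 0, like the untransformed wild type, of which 3 hypoxia and 3 air arrays were used for comparison. All plants were 5 weeks old and spent 1.5 h in the dark at 22 °C, at 1% oxygen (hypoxia) or 21% oxygen (air). The study asks how changes to RAP2.12 bear on transcript levels at both oxygen levels, and the other 6 arrays came from plants carrying 35S::HA::RAP2.12.

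Plants sense oxygen through group VII ethylene response factors, among them RAP2.12 and RAP2.2. In air, enzymes that use oxygen as a substrate mark these proteins for degradation; under low oxygen they persist and activate genes for fermentation and for survival without respiration. An artificial microRNA is a designed short RNA that lowers the transcripts it pairs with, and by its name this one is directed against RAP2.2 and RAP2.12. It is driven by the 35S promoter, which is active in most plant tissues. The transcripts of the targeted genes were not analysed here, so the labels were not checked against them. The labels do not say how many independent transgenic lines were used or whether replicates were separate plants, and p-values measure only the spread between these samples. The source is given as the rosette, while the extraction is described for whole plants. In such bulk RNA, fewer cells of a type and less RNA per cell cannot be told apart.

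The 6 arrays did not repeat equally well. Over the 10988 probe sets with a mean level above log2 6, the median SD between replicates was 0.223 for amiRAP2.2-12 hypoxia and 0.151 for amiRAP2.2-12 air, against 0.110 for wild type hypoxia and 0.104 for wild type air. The 3 hypoxia arrays of amiRAP2.2-12 differed by more than log2 1 at 2324 probe sets (10.2% of all 22746 tested). The air arrays of this line did so at 934 (4.11%). Hypoxia replicate 2 was the array farthest from the other two at 1748 of the 2324, as the lowest at 1029 and as the highest at 719. Among the air arrays, replicate 3 was farthest at 460 of the 934, and at 408 of these it was the lowest. Air replicate 3 also had a larger difference between 3′ and 5′ control probe sets, a sign of RNA quality, than any of the 12 arrays of the other genotypes in 5 of 6 control pairs.

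Hypoxia changed 642 probe sets in amiRAP2.2-12, 306 higher and 336 lower (limma, Benjamini-Hochberg adjusted p under 0.05 over all probe sets). These are 1.35% and 1.48% of those tested, 2.82% together. A change of at least 2-fold was reached by 167 of the higher and 211 of the lower. In all 642 the hypoxia and air arrays did not overlap, which was also true of 11.7% of all probe sets with hypoxia higher and 11.5% with hypoxia lower. The number depends on the spread: with one spread estimated over all 18 arrays, 1829 (8.04%) were higher and 1882 (8.27%) lower, including 626 of the 642. It also falls when any array is left out, to 139, 238 and 44 without hypoxia replicates 1, 2 and 3, and to 96, 35 and 174 without air replicates 1, 2 and 3. Of the calls, 307 had a probe set of exactly 1 named gene, 142 rises and 165 falls.

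The 4 largest rises among named genes belonged to the low-oxygen list, and they were large on every array. AT4G10270, of the wound-responsive family, had 13.81, 12.76 and 12.55 on the hypoxia arrays and 4.80, 3.20 and 3.51 on the air arrays, in log2 units. It rose by 9.21 (SE 0.60, limma adjusted p = 0.0153). AT4G33560, of the same family, had 11.36, 9.31 and 8.67 under hypoxia and 2.14, 2.54 and 2.54 in air, near the lowest value in the table, 2.11. A group with a mean under log2 2.5 is called at the floor here, and a change from it depends on how background was removed. The change of AT4G33560 was 7.37 (SE 0.79). HRA1 (AT3G10040), a trihelix transcription factor known to restrain RAP2.12, had 11.61, 10.34 and 9.82 under hypoxia and 3.57, 3.39 and 3.56 in air, a rise of 7.08 (SE 0.51). In these 3 genes, and in the others of the 12 largest rises except AT1G20070 and AT4G22530, hypoxia replicate 1 was the highest hypoxia array. AT1G33055, a hypoxia-responsive gene of unknown role, varied less, with 13.42, 12.84 and 12.64 under hypoxia and 6.36, 5.86 and 6.64 in air, and rose by 6.68 (SE 0.31).

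IAGLU (AT4G15550), which joins glucose to the auxin indole-3-acetic acid, had 11.13, 10.70 and 10.78 under hypoxia against 5.02, 4.19 and 4.84 in air. Its rise of 6.19 (SE 0.27, limma adjusted p = 0.0103) compares with 6.21 in wild type. AT3G27220, a kelch-repeat gene, rose by 5.63 (SE 0.51), and AT4G28140, of the AP2/ERF transcription factor family, rose by 4.58 (SE 0.26). The air level of AT4G28140, 2.23 on average, was at the floor. AT5G48570 (ROF2), a peptidyl-prolyl isomerase that works with heat shock proteins, had 9.82, 7.89 and 8.26 under hypoxia and 4.30, 3.92 and 4.16 in air, a rise of 4.53 (SE 0.58). The remaining 4 of the 12 largest rises, AT2G15880, AT1G21550, AT1G20070 and AT4G22530, lay between 3.32 and 3.97. AT4G22530 was the only one of the 12 in which hypoxia replicate 1 was the lowest of its group.

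The largest falls included 2 expansin-like genes. GAT1_2.1 (AT1G15040), a glutamine amidotransferase, had 3.20, 2.39 and 2.79 under hypoxia and 10.68, 9.75 and 7.56 in air, a fall of 6.53 on the log2 scale (SE 0.91, limma adjusted p = 0.0496). Its second probe set changed by -0.598, so the size rests on one probe set. AT4G16563, of the aspartyl protease family, had 2.25, 2.36 and 2.27 under hypoxia and 7.83, 7.22 and 6.25 in air (change -4.81, SE 0.44). In both genes the air arrays were spread, with replicate 3 the lowest. AT1G75960, of the AMP-dependent ligase family, fell with close replicates: 4.07, 4.26 and 4.46 under hypoxia and 7.91, 8.64 and 8.13 in air (change -3.97, SE 0.23).

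EXLA1 (AT3G45970), an expansin-like protein of the cell wall, had 6.62, 6.63 and 6.26 under hypoxia and 10.54, 10.71 and 10.00 in air, a change of -3.92 (SE 0.24). EXLA2 (AT4G38400) had 4.12, 2.97 and 3.78 under hypoxia and 7.83, 7.56 and 7.22 in air, a change of -3.92 (SE 0.37). The other 7 falls lay between -3.49 and -2.83 and included AT1G23030, a U-box ubiquitin ligase (-3.06, SE 0.26), and AT3G60290, an oxygenase that uses 2-oxoglutarate (-2.83, SE 0.21). The plot of the largest changes shows the single arrays of all 24 genes.

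**Figure D1:**
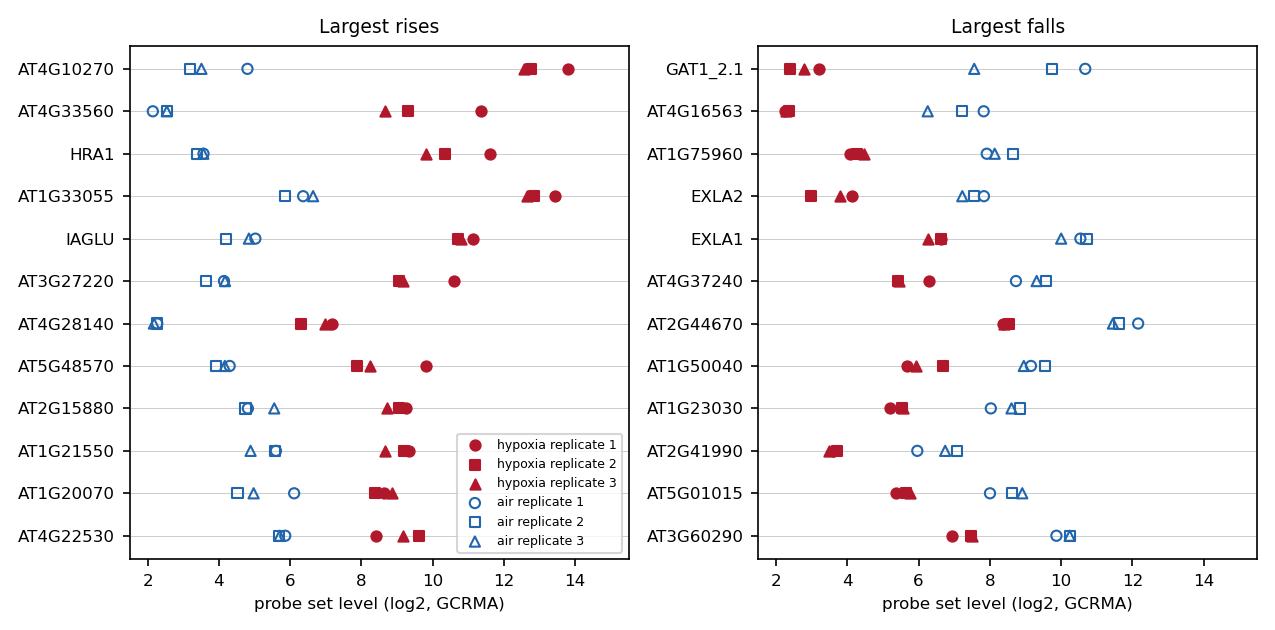
Probe set levels (log2, GCRMA) of the 12 largest rises and 12 largest falls with 1 named gene; filled symbols are the 3 amiRAP2.2-12 hypoxia arrays and open symbols the 3 amiRAP2.2-12 air arrays, 1 symbol shape per replicate. The hypoxia and air arrays do not overlap in any of the 24 genes. Hypoxia replicate 1 is highest in all of the rises except AT1G20070 and AT4G22530.

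Most of what passed in amiRAP2.2-12 had also passed in wild type. In wild type 5244 of all 22746 probe sets were called, in either direction. Of the 642 probe sets, 637 had the same sign in wild type and 551 were called there in that direction. The 551 are 85.8% of the 642 and 10.5% of the 5244 called in wild type. The same-sign share over all probe sets is not given here, so the 637 of the 642 has no background beside it. Of the 5 with the opposite sign, 3 had 1 named gene: AT5G12040 (0.208 in amiRAP2.2-12, -0.267 in wild type), AT1G56350 (-0.392, 0.131) and AT1G62860 (-0.507, 0.123), and none of the 5 was called in wild type. These 3 genes were named after their values were seen.

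The reverse view starts from wild type. In the 6 wild type arrays alone, 765 probe sets (3.36% of those tested) were raised and 886 (3.90%) lowered at least 2-fold at adjusted p under 0.05. In amiRAP2.2-12 the median change of the raised set was 1.16, 1.07 and 0.97 on hypoxia arrays 1, 2 and 3, each set against the mean of the air arrays, compared with 1.54 in wild type. The lowered set had medians of -1.24, -1.09 and -1.11, compared with -1.47 in wild type. The change was smaller than in wild type at 85.5% of the raised probe sets, but the set was chosen for its size in wild type, so a smaller change elsewhere is no result on its own. By the test on the amiRAP2.2-12 arrays, 165 of the raised set (21.6%) rose and 204 of the lowered set (23.0%) fell. None was called the other way. Of all probe sets, 1.35% were called higher and 1.48% lower. Fits without one array called 10 to 52 of the raised set and 8 to 76 of the lowered set. Over all probe sets these fits called 10 to 115 higher and 13 to 123 lower. They kept 10 to 42 of the 165 rises and 7 to 58 of the 204 falls. With the limit at 4-fold (log2 2), the raised set of 222 spread more between arrays, with medians of 2.61, 1.82 and 1.84 against 3.08 in wild type.

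**Figure D2:**
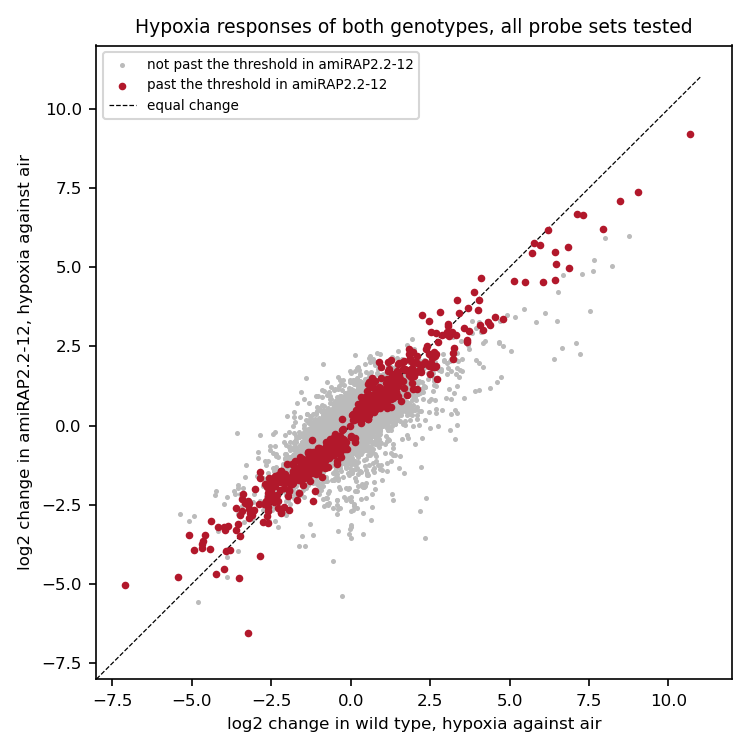
Log2 change under hypoxia in amiRAP2.2-12 (vertical axis) against that in wild type (horizontal axis), 1 point per probe set, for all 22746 probe sets; red points passed the threshold in amiRAP2.2-12 and the dashed line marks equal change. AT4G10270, AT4G33560 and HRA1, the 3 points farthest to the right among the called rises, lie below the dashed line.

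Genes known to be induced by low oxygen responded unequally on the 3 hypoxia arrays. Of 51 genes on the list, 26 had a named probe set. By the test 6 rose (1.35% of all probe sets were called higher) and none fell, but in 22 the hypoxia arrays all lay above the air arrays, as did 11.7% of all probe sets. The median change of the list was 2.57, with 0 for all probe sets. By array, the medians were 3.99, 1.80 and 1.99 for hypoxia replicates 1, 2 and 3, while the 3 wild type hypoxia arrays lay between 3.96 and 4.19. Hypoxia replicate 1 was the highest array for 25 of the 26 genes, counting AT5G45960, where the 3 hypoxia arrays were tied. Its change was within log2 1 of the wild type change for all 26, including AT5G45960, which was at the floor in both genotypes; the same held for 7 genes on replicate 2 and 5 on replicate 3.

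The called genes were AT1G33055, AT4G10270, HRA1, AT3G27220, AT4G33560 and AT4G27450. AT4G27450, the last of these, is bright in air already, with 14.45, 14.12 and 13.85 under hypoxia and 12.34, 11.80 and 12.26 in air, and rose by 2.00. Among the genes that did not pass, AT2G17850, of the rhodanese family, had 10.99, 6.63 and 7.45 under hypoxia and 2.52, 2.52 and 2.11 in air. AT5G66985 had 9.31, 5.88 and 6.86 under hypoxia and 2.11 on each air array. In both genes every hypoxia array lay above every air array, with replicate 1 the highest and replicate 2 the lowest of the hypoxia arrays. AT5G10040, an unknown gene of the hypoxia response, had 9.66, 3.10 and 5.30 under hypoxia against 2.40, 2.38 and 2.44 in air, so that replicate 2 lay less than log2 1 above air while wild type changed by 7.54. AT1G19530 overlapped outright, with 11.17, 5.94 and 8.79 under hypoxia and 8.52, 6.09 and 7.96 in air.

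AT1G05575 was the exception in direction. It had 7.28, 8.82 and 8.35 under hypoxia and 7.95, 8.57 and 8.36 in air, a change of -0.14 (limma adjusted p = 1.00), with a wild type change of -1.26. The change was lower in amiRAP2.2-12 than in wild type for 25 of the 26 genes, counting AT5G45960, whose level was at the floor. It was also lower at 9819 of all 22746 probe sets. The list was chosen with earlier results of these data known, so the count of 25 is no result on its own. No difference between the genotypes passed its own test in any of the 26 (limma adjusted p between 0.542 and 1.00). With the spread of all 18 arrays 21 of the 26 rose, and without single amiRAP2.2-12 arrays 5, 1 and 1 rose (hypoxia replicates 1, 2 and 3) or 1, 0 and 1 (air replicates 1, 2 and 3). AT4G27450, AT2G17850, AT5G66985 and AT1G05575 were singled out after their values were seen.

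**Figure D3:**
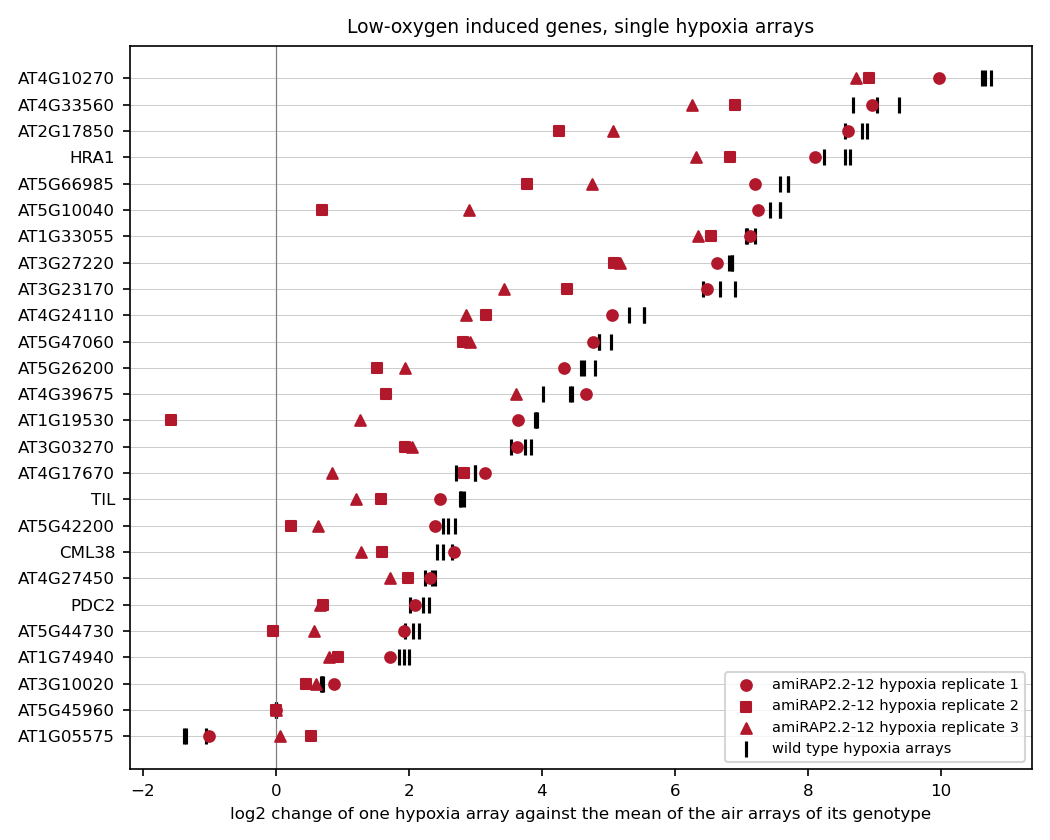
Log2 change of each hypoxia array against the mean of the air arrays of its genotype for the 26 measured low-oxygen induced genes, ordered by the wild type change; red symbols are the 3 amiRAP2.2-12 hypoxia arrays and black ticks the 3 wild type hypoxia arrays. The circles of amiRAP2.2-12 replicate 1 lie within log2 1 of the wild type change in all 26 genes, and replicates 2 and 3 lie lower in most genes.

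Of the fermentation enzymes, PDC2 showed the same split. PDC2 (AT5G54960), a pyruvate decarboxylase that starts the route to ethanol, had 11.40, 10.02 and 9.97 under hypoxia and 9.06, 9.54 and 9.32 in air, a change of 1.16 (SE 0.47, limma adjusted p = 0.330). Replicate 1 lay nearest to the wild type hypoxia level of 11.95 ± 0.15 (SD, n = 3). The lactate dehydrogenase AT4G17260 had 8.33, 7.85 and 8.06 under hypoxia against 7.45, 6.92 and 6.51 in air, without overlap (change 1.12, adjusted p = 0.162). PPDK (AT4G15530), pyruvate orthophosphate dikinase, had 9.27, 10.27 and 9.58 under hypoxia and 12.00, 11.59 and 11.24 in air (change -1.90, adjusted p = 0.0826). GAPC2 (AT1G13440), a glyceraldehyde-3-phosphate dehydrogenase of glycolysis, changed by 0.15. Of 34 listed genes of fermentation, sucrose breakdown and glycolysis, only 5 had a named probe set. Of these 5, 0 passed, beside 1.35% of all probe sets called higher and 1.48% called lower.

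Heat shock and chaperone genes, which help other proteins fold, separated the 3 hypoxia arrays further. Of 29 genes listed, 12 were measured, and 2 rose and none fell, beside 1.35% of all probe sets called higher. The hypoxia arrays lay above the air arrays in 7 of the 12, as they did at 11.7% of all probe sets. The list medians were 4.07, 0.48 and 1.43 on hypoxia replicates 1, 2 and 3, and 4.03 in wild type. Replicate 1 was the highest array for 11 of the 12 genes and replicate 2 the lowest for 9, counting ties. Of the 12 genes, 2 were at the floor on all 6 arrays. The list median of 1.76 became 0.83 without replicate 1. One gene was even: AT3G09440, a cytosolic HSP70, had 10.56, 10.63 and 10.56 under hypoxia and 8.87, 8.82 and 8.12 in air, and rose by 1.98 (SE 0.23, limma adjusted p = 0.0371). The other call was AT5G48570, described above.

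Small heat shock proteins and co-chaperones were uneven. The small heat shock protein gene AT2G29500 had 8.89, 2.96 and 4.76 under hypoxia against 3.85, 2.67 and 2.24 in air, and its wild type hypoxia arrays had 9.59, 9.81 and 9.46. AT1G71000, of the DnaJ family, had 6.69 on hypoxia replicate 1 and 2.123 on replicates 2 and 3, against 2.11 on each air array. For this gene only replicate 1 left the floor. AT5G51440, a small heat shock protein of mitochondria, had 7.58, 3.34 and 4.70 under hypoxia and lay at the floor on each air array, without overlap, but did not pass (change 3.08, limma adjusted p = 0.307). Both calls of the list were lost without hypoxia replicate 2 or 3 or without air replicate 1 or 2, and 1 remained without hypoxia replicate 1 or air replicate 3.

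**Figure D4:**
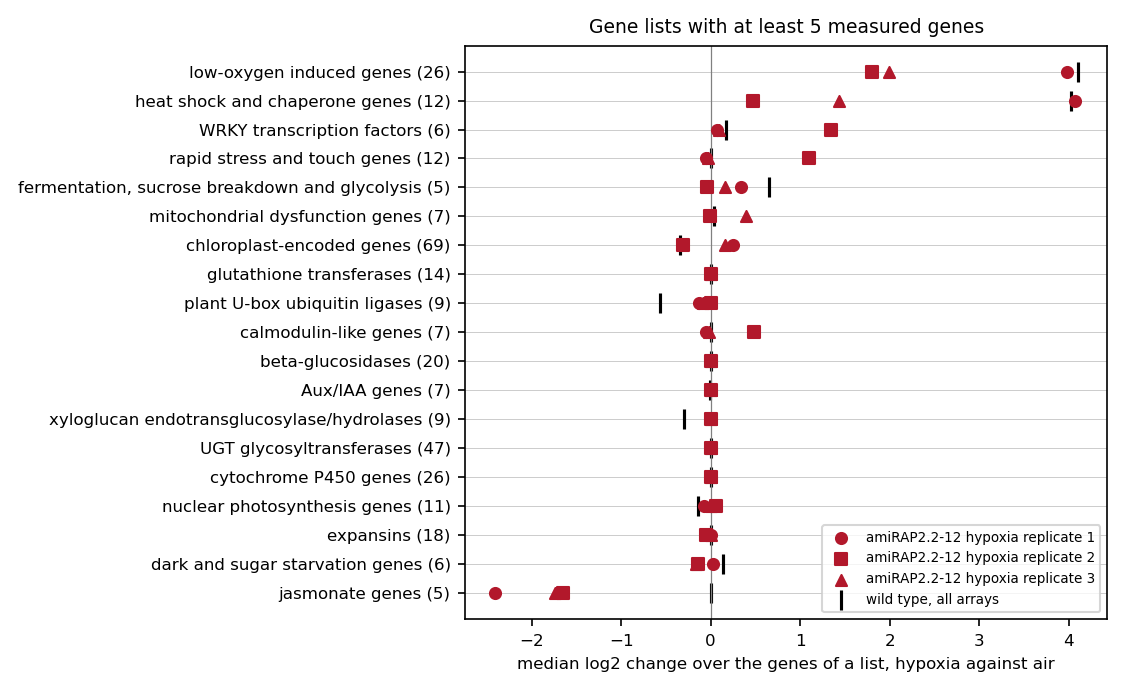
Median log2 change over the measured genes of each list (number in brackets) on each amiRAP2.2-12 hypoxia array against the mean of the amiRAP2.2-12 air arrays (red), and the median of the change in wild type (black ticks). Replicate 1 has medians of 3.99 and 4.07 for low-oxygen and heat shock genes, beside wild type medians of 4.10 and 4.03, while the medians of WRKY and rapid stress genes exceed log2 1 on replicate 2 only.

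Among genes of sugar transfer and detoxification, the called members were alike on the 3 hypoxia arrays, as a test against the replicate spread favours. UGT enzymes attach sugars to small molecules such as hormones and flavonoids, and 5 of 47 measured members rose, beside 1.35% of all probe sets. UGT73B1 (AT4G34138) had 9.94, 9.95 and 9.95 under hypoxia and 7.37, 6.99 and 7.54 in air, a rise of 2.65 (SE 0.15, limma adjusted p = 0.0129). UGT76E11 (AT3G46670) had 7.56, 7.70 and 7.46 under hypoxia and 4.86, 4.10 and 3.91 in air, a rise of 3.28 (SE 0.28). UGT84A3 (AT4G15490) had 8.43, 8.82 and 8.37 under hypoxia and 6.42, 6.53 and 5.76 in air. UGT73B5 and UGT87A2 rose by 3.08 and 2.52, and UGT87A2 was named after its values were seen. Of the other 42, 19 were at the floor on all arrays, and the median of the family was 0. Without single arrays 0, 1 and 0 of the 5 calls were left (hypoxia replicates 1, 2 and 3) or 1 each (air replicates).

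Of 26 cytochrome P450 genes, a family of oxygen-dependent hydroxylases, 3 rose and none fell, beside the same 1.35%. CYP71B26 (AT3G26290) had 8.81, 8.87 and 8.84 under hypoxia and 8.18, 7.92 and 8.09 in air (change 0.77, SE 0.08). CYP71B24 (AT3G26230) had 7.53, 7.89 and 7.30 under hypoxia and 5.22, 5.57 and 5.95 in air, a rise of 1.99 (SE 0.26) beside 0.90 in wild type. The difference between genotypes did not pass (limma adjusted p = 0.392). CYP78A9 rose by 1.68 (SE 0.23), and all 3 calls were lost when any array was left out. Among 14 glutathione transferases, which join glutathione to reactive compounds, GSTU16 (AT1G59700) rose by 1.20 (SE 0.07), with 9.85, 9.78 and 9.81 under hypoxia against 8.67, 8.69 and 8.48 in air. This call was kept without hypoxia replicate 2 or air replicate 3.

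Among cell wall genes the calls were 2 falls. Expansins loosen the wall during growth. Of 18 measured members of the expansin list, 2 fell, beside 1.48% of all probe sets called lower. They were the expansin-like genes EXLA1 and EXLA2, and no rise was called. Both calls were kept without hypoxia replicate 2, 1 without air replicate 3, and neither without one of the other 4 arrays. EXPA8 (AT2G40610) had 9.78, 8.87 and 9.14 under hypoxia and 7.14, 7.43 and 6.91 in air, without overlap (change 2.11, SE 0.30, limma adjusted p = 0.0505). EXPA9 (AT5G02260) had 3.91, 3.70 and 4.33 under hypoxia and 5.86, 5.54 and 4.97 in air (change -1.48, adjusted p = 0.101). Of 9 xyloglucan endotransglucosylase/hydrolases, which cut and rejoin wall polymers, 0 passed. XTH16 (AT3G23730) had 5.65, 2.52 and 5.12 under hypoxia against 7.72, 7.02 and 6.56 in air, with replicate 2 the lowest (change -2.67, adjusted p = 0.282).

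Rapid stress and touch genes, early responders to wounding, cold and mechanical stimuli, stood out on hypoxia replicate 2. None of the 12 measured members passed, beside 2.82% of all probe sets called in either direction. The medians were -0.05, 1.10 and -0.03 on replicates 1, 2 and 3, with 0.005 in wild type. Replicate 2 was the highest hypoxia array for 9 of the 12. WRKY6 (AT1G62300), a transcription factor, had 7.25, 9.05 and 7.54 under hypoxia and 6.52, 6.77 and 5.98 in air (change 1.52, limma adjusted p = 0.299). WRKY53 (AT4G23810), a regulator of leaf ageing, had 8.70, 10.04 and 8.88 under hypoxia and 8.46, 8.85 and 8.33 in air. The WRKY list of 6 genes had medians of 0.08, 1.34 and 0.09. PUB23 (AT2G35930), a ubiquitin ligase of the stress response, had 4.97, 6.84 and 5.34 under hypoxia and 8.12, 7.86 and 6.96 in air, a change of -1.93 that did not pass (adjusted p = 0.242). Other members had another order. CML38 (AT1G76650), a calmodulin-like gene, was highest on replicate 1, with 11.87, 10.78 and 10.47 under hypoxia and 8.46, 9.60 and 9.50 in air (change 1.85, adjusted p = 0.192). AT4G29780 was highest on replicate 3, with 4.58, 5.62 and 6.02 under hypoxia and 6.73, 7.38 and 8.31 in air (change -2.07, adjusted p = 0.194).

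Of 5 measured genes of jasmonate, a wound hormone, 3 oxidase genes were spread widely between the air arrays. AT2G38240, which encodes a jasmonate oxidase, had 3.05, 4.00 and 2.74 under hypoxia and 11.47, 9.64 and 4.80 in air, while wild type averaged 2.74 under hypoxia and 3.01 in air. JRG21 (AT3G55970), another jasmonate oxidase, had 4.10, 4.48 and 4.10 under hypoxia and 8.98, 6.96 and 3.62 in air. The hypoxia arrays of JRG21 thus lay below air replicates 1 and 2 and above air replicate 3. AT5G05600, of the same oxidase group, had 7.78, 8.78 and 8.69 under hypoxia and 11.67, 10.86 and 8.77 in air. For all 3 genes air replicate 3 was the lowest air array. It was the lowest for 4 of the 5 measured jasmonate genes and the highest for 1. THI2.1 (AT1G72260), also of the list, lay near the floor, with 3.30, 2.19 and 2.11 in air. In wild type AT5G05600 averaged 8.86 under hypoxia and 8.95 in air. JRG21 averaged 6.04 under hypoxia and 3.67 in air in wild type and rose there by 2.38 (limma adjusted p = 0.00108), opposite in sign to its change of -2.29 in amiRAP2.2-12 (adjusted p = 0.592). The difference between the genotypes for JRG21 did not pass (adjusted p = 0.440). Air replicate 3 is also the array with the larger 3′ to 5′ difference of the controls, and the part of RNA quality in these values was not tested.

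None of the 5 measured jasmonate genes passed (median change -2.02, with 0 in wild type), beside 2.82% of all probe sets called in either direction. Outside the list the same pattern was seen in 2 genes. AT4G17470 had 2.52, 3.13 and 3.13 under hypoxia and 9.97, 8.48 and 3.13 in air, and MSRB9 (AT4G21850), a methionine sulfoxide reductase, had 3.58, 4.91 and 4.73 under hypoxia and 9.26, 7.27 and 4.14 in air. Without air replicate 1 the list median was -1.06 and without air replicate 3 it was -2.85.

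**Figure D5:**
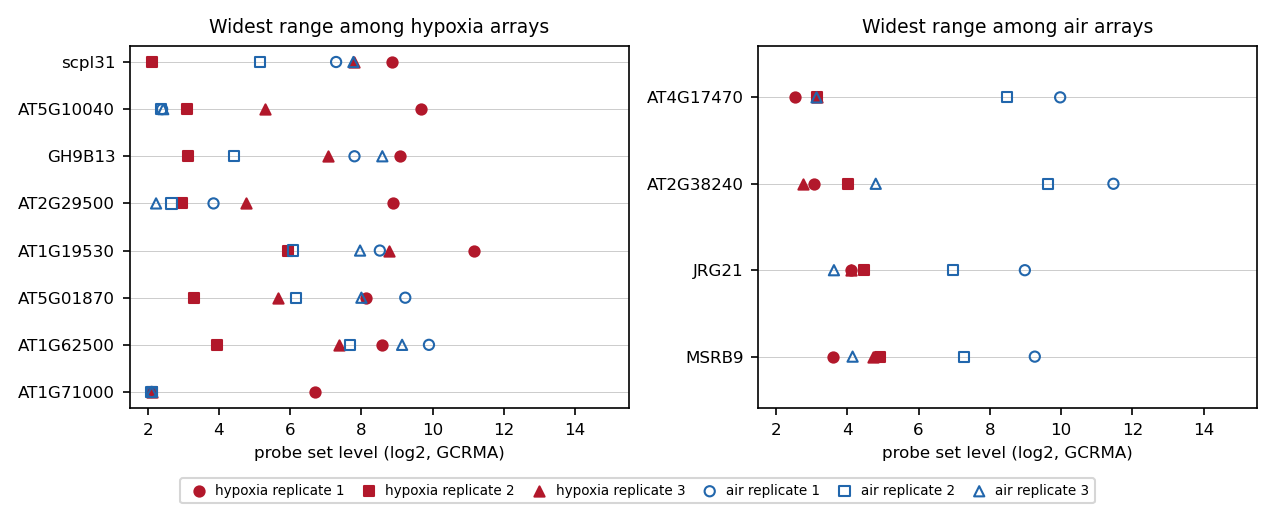
Levels (log2, GCRMA) of the 8 named genes with the widest range among the amiRAP2.2-12 hypoxia arrays (left) and the 4 with the widest range among the amiRAP2.2-12 air arrays (right); filled symbols are hypoxia arrays and open symbols air arrays. On the left, hypoxia replicate 1 is highest and replicate 2 lowest or level with the lowest; on the right, air replicates 1 and 2 stand above air replicate 3.

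Of the 8 genes with the widest range under hypoxia, 4 are described above: AT5G10040, AT1G19530, AT2G29500 and AT1G71000 belong to the low-oxygen and heat shock lists above. The other 4 are on no list. scpl31 (AT1G11080), a serine carboxypeptidase-like gene, had 8.86, 2.11 and 7.79 under hypoxia and 7.29, 5.15 and 7.78 in air. GH9B13 (AT4G02290), a glycosyl hydrolase of the cellulase family, had 9.07, 3.13 and 7.07 under hypoxia and 7.81, 4.43 and 8.59 in air. AT5G01870 had 8.14, 3.29 and 5.66 under hypoxia and 9.23, 6.17 and 8.00 in air, and AT1G62500 had 8.59, 3.95 and 7.37 under hypoxia and 9.90, 7.68 and 9.14 in air. In all 4, and in AT1G19530, replicate 2 was the lowest array at both oxygen levels.

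The root marker PYK10 was also lowest on replicate 2 under hypoxia, but in air it was lowest on replicate 3. Of 3 root markers, PYK10 (AT3G09260), a beta-glucosidase of the root and hypocotyl, had 8.21, 3.85 and 6.76 under hypoxia and 8.76, 8.27 and 7.76 in air. The other 2, AT4G11290 and AT5G66390, stayed at or below 2.66. On the linear scale the 3 markers summed to 306, 23.3 and 119 under hypoxia and 442, 318 and 226 in air, beside 237 to 437 over the 6 wild type arrays. Photosynthesis genes of leaves were at the floor on none of the 6 arrays, and 0 of 11 passed, beside 2.82% of all probe sets. Of the flower and seed markers none had a named probe set, and the 1 senescence marker measured was at the floor. The part of tissue content in the results was not tested.

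Genes encoded by the chloroplast genome had no call but differed between single arrays. Of 69 measured genes 0 passed, beside 2.82% of all probe sets called in either direction. Their change between hypoxia and air had a median of 0.03. The medians were 0.25, -0.31 and 0.16 on hypoxia replicates 1, 2 and 3, with replicate 1 the highest array for 55 genes and replicate 2 the lowest for 62. petD, a subunit of the cytochrome b6f complex, had 8.87, 6.47 and 7.33 under hypoxia and 8.32, 5.93 and 3.43 in air, and was singled out after its values were seen. By contrast psbF, a subunit of photosystem II, was bright and even, with 14.30, 14.20 and 14.25 under hypoxia and 14.23, 14.18 and 14.17 in air.

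Other lists held few changes. MCCA (AT1G03090), a subunit of methylcrotonyl-CoA carboxylase that breaks down leucine, had 12.50, 12.44 and 12.60 under hypoxia and 13.49, 13.44 and 13.27 in air. It fell by 0.88 on the log2 scale (SE 0.08, limma adjusted p = 0.0237). This was the 1 call among 6 dark and sugar starvation genes, beside 1.48% of all probe sets called lower. The call was kept only without air replicate 3. RTE1 (AT2G26070), a regulator of an ethylene receptor, had 9.06, 8.83 and 8.89 under hypoxia and 8.47, 8.48 and 8.52 in air (change 0.44, adjusted p = 0.0587). EIN3 (AT3G20770), the transcription factor of ethylene signalling, changed by 0.30 (adjusted p = 0.460). BGLU44 (AT3G18080), a beta-glucosidase, changed by 0.91 (adjusted p = 0.0601) and PUB19 (AT1G60190), a ubiquitin ligase, by 3.27 (adjusted p = 0.0565), both without overlap. GRX480 (AT1G28480), a glutaredoxin and the 1 measured salicylic acid gene, had 5.92, 7.58 and 7.17 under hypoxia and 5.56, 5.80 and 3.76 in air (change 1.85, adjusted p = 0.347). None of the measured ethylene (3), abscisic acid and cold (3), beta-glucosidase (20), calmodulin-like (7), plant U-box with a PUB symbol (9), Aux/IAA (7) or mitochondrial dysfunction (7) genes passed. Of all probe sets, 1.35% were called higher and 1.48% lower, so lists this short can hold no call without differing from the rest. At the floor on all 6 arrays were 11 of the beta-glucosidases, 4 of the Aux/IAA genes and 2 of the mitochondrial dysfunction genes. The same held for 1 calmodulin-like and 1 U-box gene. The U-box gene AT1G23030, which fell, has no PUB symbol in the gene table and is not on that list.

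Differences from wild type were tested directly as well, and few passed. The hypoxia response of amiRAP2.2-12 differed from that of wild type at 8 probe sets (0.0352%), 7 with a lower and 1 with a higher response, and 1789 had an unadjusted p under 0.05. Of the 8, 3 had 1 named gene and none was on the low-oxygen list. AT5G59130, of the subtilase family, had 2.34, 2.97 and 2.37 on amiRAP2.2-12 hypoxia arrays and 2.33, 2.33 and 2.38 on amiRAP2.2-12 air arrays. In wild type it had 4.48, 4.30 and 4.55 under hypoxia and 2.34, 2.38 and 2.38 in air, and the responses differed by -1.87 (SE 0.21, limma adjusted p = 0.0437).

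AT3G13950 averaged 2.47 ± 0.07 under hypoxia and 2.42 ± 0.05 in air in amiRAP2.2-12, and 4.31 ± 0.19 under hypoxia and 2.67 ± 0.15 in air in wild type (SD, n = 3 each; difference -1.60, SE 0.15, limma adjusted p = 0.0152). AT4G12500 averaged 2.247 ± 0.109 under hypoxia and 2.196 ± 0.115 in air in amiRAP2.2-12, and 4.00 ± 0.08 under hypoxia and 2.61 ± 0.20 in air in wild type (difference -1.34, SE 0.15, adjusted p = 0.0437). All 3 genes were at or near the floor in both amiRAP2.2-12 groups and in wild type air. Of the 8 probe sets, 6 were at the floor in both amiRAP2.2-12 groups. The count of 8 became 260, 32 and 7 without amiRAP2.2-12 hypoxia replicates 1, 2 and 3, and 5, 16 and 181 without amiRAP2.2-12 air replicates 1, 2 and 3. It became 27, 17 and 12 without wild type hypoxia replicates 1, 2 and 3, and 8, 9 and 6 without wild type air replicates 1, 2 and 3.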

How the data were processed

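Total RNA was hybridised to 1-colour Affymetrix Arabidopsis arrays, 1 per sample. The deposited values were on the log2 scale, 1 per probe set and array, and were made with GCRMA (background correction, normalization, summary per probe set), per the submitters' processing notes; the version is not given in the sources used here. Of 22810 probe sets, 64 controls were left out. The lowest value was 2.11, and 35.4% of values on the 6 arrays lay under log2 2.5, called the floor here. Array data have no read depth; the number of arrays limits the precision.

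Gene names came from GEO's platform annotation and the TAIR10.1 gene table: 13513 probe sets had 1 gene, 503 several, and 8730 (38.4%) were not listed. Groups came from sample titles. The 6 amiRAP2.2-12 arrays were fitted with limma 3.58.1 in R 4.3.3 (lmFit, eBayes, two-sided, Benjamini-Hochberg over all probe sets, threshold 0.05), and the difference from wild type on 12 arrays. The wild type sets were chosen on its 6 arrays. Of 41 gene lists, 30 had a measured gene, and each gene was represented by its brightest probe set. The fit was run on simulated data with noise drawn independently for each probe set and array. Such data hold no deviation shared over a whole array, so the run cannot show how the fit handles one. The main fit did not take equal replicate numbers as pairs. Same-numbered hypoxia and air arrays deviated with correlations of 0.179, 0.418 and 0.013. Between differently numbered arrays the correlations ran from -0.359 to 0.159. An effect shared by arrays of the same number was not tested, and a fit with a replicate block called 17 probe sets higher and 18 lower.

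Alternatives were quantile normalization, median centring, a filter on dim probe sets, removal of _s_at and _x_at probe sets, eBayes with trend and robust options, arrayWeights, all 18 arrays, a replicate block, a limit on size, means per gene and leaving out arrays. Genes named were the 12 largest rises and 12 largest falls with 1 gene, up to 4 per list by p, a set of 17 (4 measured), 8 and 4 with the widest ranges under hypoxia and in air, and up to 6 per direction for the difference from wild type; others are described as chosen after their values were seen. The lists, members and rule were chosen with earlier results of these data known. Promoter sequences were not used here. The plots were made in matplotlib 3.10.9 (Python 3.11.15).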

Additional observations from a re-analysis of the deposited data

Results flagged for a closer look

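The test of the difference between genotypes singled out 3 genes. The response of AT3G13950 was lower in amiRAP2.2-12 than in wild type by a log2 difference of -1.601, that of AT4G12500 by -1.335 and that of AT5G59130 by -1.867, and each had 3 of 3 wild type hypoxia arrays above its wild type air arrays. AT3G13950 passed in 18 of 20 other settings, AT4G12500 in 8 of 19 and AT5G59130 in 6 of 20; all 3 failed with the spread of all 18 arrays.

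AT4G28750 (PSAE-1), a subunit of photosystem I, was singled out because its arrays moved in opposite directions. It had 14.91, 15.05 and 14.88 under hypoxia and 14.69, 14.87 and 14.88 in air in amiRAP2.2-12, a change of 0.137, and 14.85, 14.85 and 14.80 under hypoxia and 14.94, 14.90 and 14.88 in air in wild type, a change of -0.075. Neither change passed, and the difference of 0.212 between them had a limma adjusted p of 0.552.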

How the results depend on the processing

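The counts of 306 higher and 336 lower probe sets became 1829 and 1882 with all 18 arrays, 17 and 18 with a replicate block, 689 and 530 after median centring, 717 and 834 with the filter on dim probe sets (13357 kept), 15 and 11 with the trend and robust options, 1111 and 1180 with arrayWeights, and 167 and 211 at a log2 change of at least 1. Leaving out 1 array gave 10 to 115 higher and 13 to 123 lower; fewer arrays and residual degrees of freedom are part of that change. The 8 differences from wild type became 40, 5, 13 and 477 with all 18 arrays, the replicate block, median centring and arrayWeights, and 5 to 260 without 1 array. The 6 low-oxygen genes became 21 (all 18 arrays), 0 (replicate block), 13 (median centring), 16 (dim filter), 3 (trend and robust) and 13 (arrayWeights), and 0 to 5 without 1 array. Median changes of the wild type sets were 2.042 and -2.066 at a limit of log2 2, and -1.061 for the lowered set after median centring, where the median of all probe sets shifted by 0.087. Other causes were not tested. Quantile normalization, means per gene and removal of _s_at and _x_at probe sets kept all these counts within 1.5 times. No named gene that was called changed sign in any of these. Of 34 named genes called, all passed with all 18 arrays, arrayWeights, the dim filter, centring and quantile normalization, 8 with the trend and robust options, 1 with the replicate block and 0 to 11 without 1 array. Hypoxia replicate 3 correlated best with air replicate 1 (0.159), so only replicates 1 and 2 deviated most like their own number.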
